A study of Mus musculus with 2 samples.

Results

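Macrophage and monocyte genes were described in mouse thymocytes on 2 Affymetrix arrays of 1 colour, a TKO-labelled and a DKO-labelled one. The group holds 10 genes, Chil3, Lyz1, Lyz2, Csf1r, Cd68, Ctss, Itgam, Fcgr3, Cd14 and Adgre1, out of 18193 genes with a named probe set. Every probe set annotated to 1 of these genes alone was taken, which gave 14 of 45037 probe sets. The genes were selected on the TKO-labelled over DKO-labelled ratios of these same arrays, such as that of Chil3, and on their place in macrophage biology, so their ratios are a description and support nothing by themselves. Both arrays held RNA of cells without lineage markers, left after bead depletion of C57BL/6J thymocytes, named DN (double-negative) thymocytes in the series title. By the series' design text TKO mice carry LckCre, a recombinase transgene active in T-lineage cells, and DKO mice lack it, while all mice of both groups are Cdkn2a-/-, Ring1A-/- and Ring1Bfl/fl. The samples' genotype field words it otherwise, with Ring1A, Ring1B and Cdkn2a lost in TKO and Ring1A with Ring1B lost in DKO. The sources used here give no age, sex or number of animals behind each RNA, and a growth field places the thymocytes in standard medium.

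Macrophages and monocytes are phagocytes that develop from myeloid progenitors. They depend on the growth factor Csf1, which signals through the receptor Csf1r, and on the transcription factor PU.1, encoded by Spi1. In the thymus, macrophages clear the many thymocytes that die during selection. Their genes also serve other blood cells: lysozyme and Fcgr3 are found in neutrophils, Fcgr3 and Itgam in natural killer cells, and Ctss in B cells and dendritic cells.

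Each label had 1 array, so there was no spread between samples, no test was possible, and higher and lower describe these 2 arrays. Signals are the deposited MAS5 intensities on a linear scale, where MAS5 is the Affymetrix summary of the probes of a probe set. A floor was set at the median of all probe sets, 71.8 on the TKO-labelled array and 68.8 on the DKO-labelled array. A signal below it was raised to it, and a gene below it on both arrays has no ratio. A gene at 2-fold or more was counted as higher or lower. The labels did not fully match the signals of the targeted genes. Cdkn2a stood at 18.5 (below the floor) on the TKO-labelled and 679 on the DKO-labelled array, and Rnf2 (Ring1B) at 4384 and 4149 in that order. Ring1 (Ring1A), lost in both groups by either text, had 147 and 133, above the floor on both. The sources used here do not say whether these probe sets lie inside the deleted parts. Sex moved with the label too: Xist had 16502 on the TKO-labelled and 124 on the DKO-labelled array, and the Y-linked Eif2s3y had 55.3 (below the floor) and 1711. None of the 10 macrophage and monocyte genes lies on a sex chromosome. T-lineage markers were bright on both arrays: Thy1 had 12791 on the TKO-labelled and 18527 on the DKO-labelled array, and Cd3g had 13607 and 22057.

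Of the 10 genes, 5 were higher on the TKO-labelled array by 2-fold or more, 0 were 2-fold lower, 3 lay under 2-fold and 2 were below the floor on both arrays. Chil3, Csf1r, Lyz1, Ctss and Lyz2 were the higher genes, Fcgr3, Cd68 and Adgre1 lay under 2-fold, and Cd14 and Itgam had no ratio. The 8 measured genes were all on the positive side, with a median log2 ratio of 1.40 (2.64-fold), while the median over 11280 measured genes of the arrays was -0.03. Among all measured genes 3.58% were at least 2-fold higher and 0.532% at least 2-fold lower. Nothing is read from the members' count against these shares, because the members were chosen with this difference known. By probe set, 7 of the 11 measured ones were at least 2-fold higher and 0 were 2-fold lower, against 2.97% and 0.51% of 20400 measured probe sets of 1 gene. The log2 ratios of the 2 brightest probe sets of a gene, each measured on both arrays, gave a robust SD of 0.21 per probe set (4794 genes). This SD holds no error between animals or RNA preparations and does not cover dimmer probe sets. More phagocytes, more of other cells with these RNAs, and more of these RNAs per cell cannot be told apart in such bulk RNA.

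**Figure D1:**
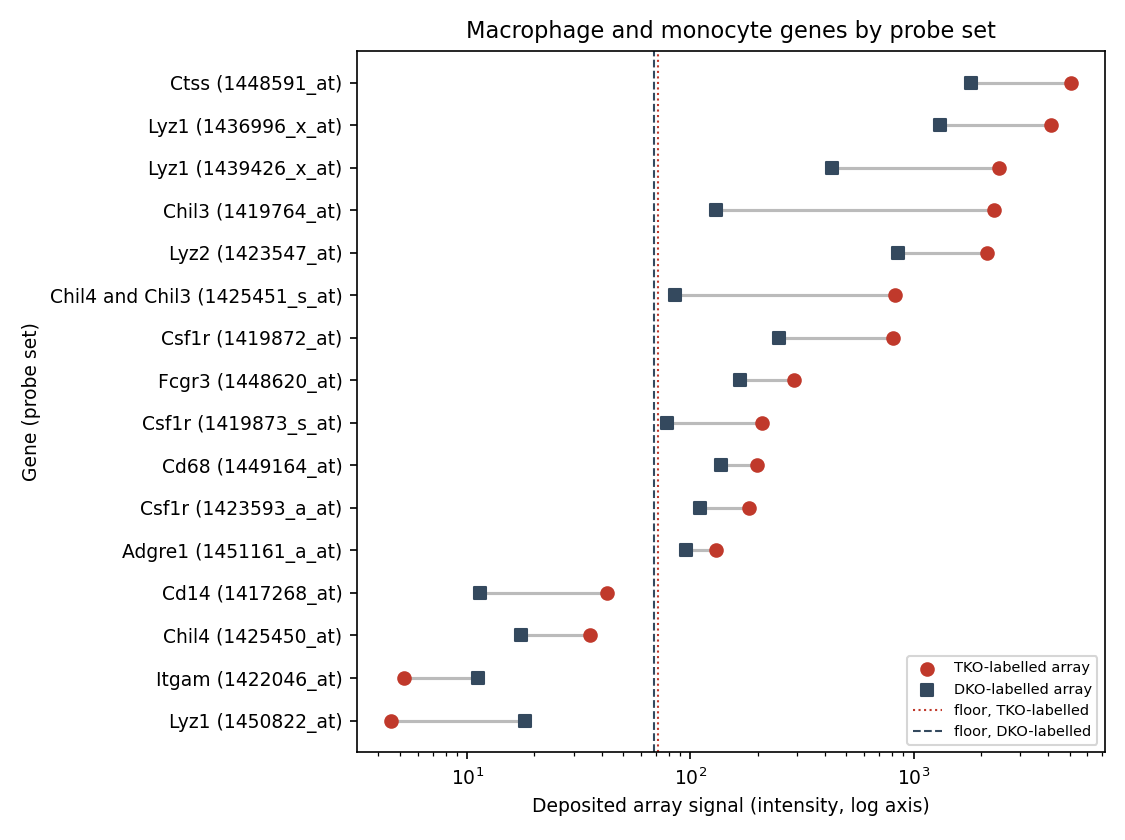
Deposited signal (intensity, log axis) of each probe set of the macrophage and monocyte genes, with the Chil4 probe set and the probe set shared by Chil3 and Chil4, on the TKO-labelled array (circles) and the DKO-labelled array (squares). Vertical lines mark the floors of 71.8 and 68.8, and 4 probe sets, of Cd14, Itgam, Lyz1 and Chil4, lie below both.

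**Figure D2:**
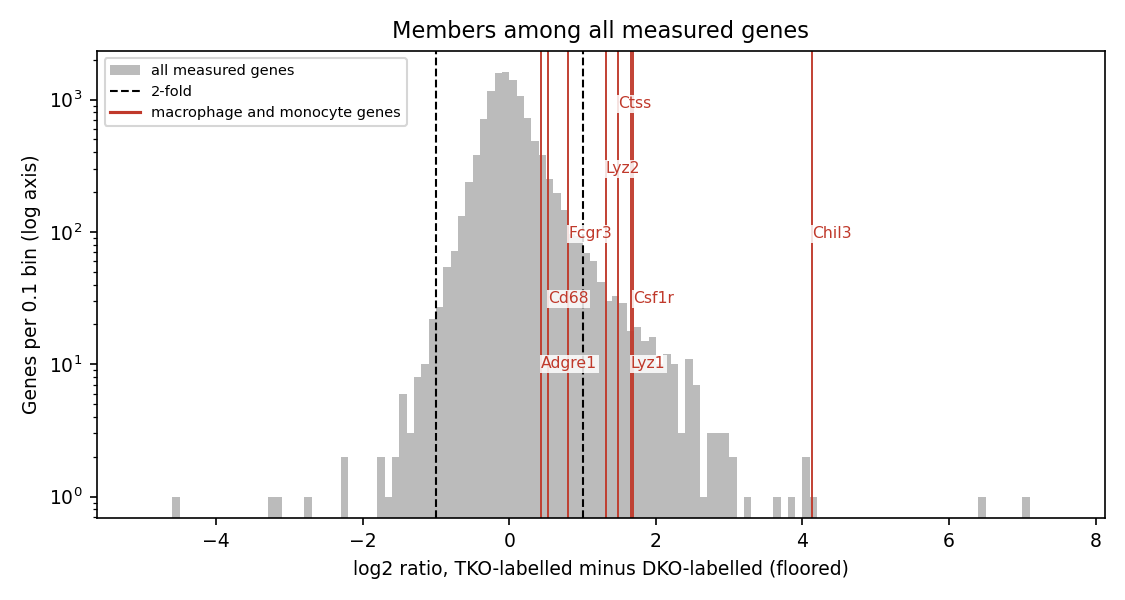
Number of genes in each 0.1 bin of the log2 ratio, TKO-labelled minus DKO-labelled (log axis), for 11280 measured genes, with red lines at the 8 measured macrophage and monocyte genes. All 8 lie right of 0, 5 lie right of the 2-fold line, and Chil3 stands farthest out at 4.14.

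The secreted proteins of the group come first: the chitinase-like lectin Chil3 (Ym1), known from alternatively activated macrophages and from neutrophil precursors, and the lysozymes, which cut bacterial cell walls. Mice have a pair of lysozyme genes side by side, Lyz2 as the form of macrophages and Lyz1 as the form of intestinal Paneth cells. The 250 bases before the start sites of these genes are shown because the genes lie beside paralogs with similar upstream sequence: Lyz1 and Lyz2 were identical at 205 of 240 aligned bases (85.4%), and Chil3 and its neighbour Chil4 at 201 of 221 (91.0%). The Ctss window is added as that of the brightest gene of the group on the TKO-labelled array. Sequences are from RefSeq, build GRCm38.p6, read 5′ to 3′ along the gene. Capitals mark AGGAAGT and GAGGAA on either strand, both of which hold the GGAA core read by ETS-family factors such as PU.1. Both words share the bases AGGAA, so they can overlap.
Chil3, chr3:106167565-106167814, minus strand: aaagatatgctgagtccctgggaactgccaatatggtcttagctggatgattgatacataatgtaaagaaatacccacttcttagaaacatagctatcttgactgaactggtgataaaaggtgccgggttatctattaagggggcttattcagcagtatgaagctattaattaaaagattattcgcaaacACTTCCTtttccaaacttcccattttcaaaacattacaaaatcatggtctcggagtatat
Chil4, chr3:106219480-106219729, minus strand: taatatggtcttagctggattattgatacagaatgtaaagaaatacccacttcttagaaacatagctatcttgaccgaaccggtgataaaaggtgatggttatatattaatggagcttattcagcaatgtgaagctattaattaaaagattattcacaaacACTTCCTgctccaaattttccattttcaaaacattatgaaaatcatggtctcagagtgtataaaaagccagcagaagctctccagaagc
Lyz2, chr10:117282273-117282522, minus strand: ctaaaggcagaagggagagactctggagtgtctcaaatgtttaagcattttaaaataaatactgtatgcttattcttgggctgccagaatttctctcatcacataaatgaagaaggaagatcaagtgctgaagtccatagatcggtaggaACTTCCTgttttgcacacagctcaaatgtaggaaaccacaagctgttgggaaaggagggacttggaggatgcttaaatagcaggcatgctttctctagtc
Lyz1, chr10:117292869-117293118, minus strand: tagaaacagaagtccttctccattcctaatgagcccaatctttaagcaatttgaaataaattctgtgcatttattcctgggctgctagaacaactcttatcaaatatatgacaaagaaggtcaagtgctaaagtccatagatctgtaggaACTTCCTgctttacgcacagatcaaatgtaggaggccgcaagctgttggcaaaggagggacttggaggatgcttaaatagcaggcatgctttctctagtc
Ctss, chr3:95526536-95526785, plus strand: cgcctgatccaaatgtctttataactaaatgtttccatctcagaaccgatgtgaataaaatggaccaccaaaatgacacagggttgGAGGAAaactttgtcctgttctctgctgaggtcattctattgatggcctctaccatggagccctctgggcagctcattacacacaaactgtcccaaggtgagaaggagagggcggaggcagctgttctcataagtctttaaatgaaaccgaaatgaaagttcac

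The word AGGAAGT stood on the reverse strand in the Chil3 window, starting at base -60 from the start site, and in both lysozyme windows at base -100. The Chil4 window held it at base -89. Ctss held GAGGAA instead, on the forward strand at base -164. Of the 7 members with a promoter window in the RefSeq table, 3 held AGGAAGT (Chil3, Lyz1 and Lyz2) and 4 held GAGGAA (Ctss, Cd68, Fcgr3 and Itgam). Over all 32851 windows of the same length, 7.69% held AGGAAGT and 23.3% held GAGGAA. The words were chosen after these windows had been seen, and a match is a stretch of letters, not a site at which binding was measured. Csf1r, Cd14 and Adgre1 were not matched.

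Chil3 had a signal of 2300 on the TKO-labelled array and 131 on the DKO-labelled array, 17.6-fold higher (log2 ratio 4.14). The DKO-labelled signal lay less than 2-fold above the floor, while the TKO-labelled signal was among the brighter ones of the group. Another probe set is annotated to Chil3 and Chil4 together and was left out of the counts. It had 826 on the TKO-labelled and 85.5 on the DKO-labelled array, 9.67-fold higher (log2 ratio 3.27). The probe set of Chil4 alone was below the floor on both arrays, at 35.6 and 17.4. Thus both probe sets that read Chil3 were far brighter on the TKO-labelled array, and the one that reads only its paralog was not measured on either. With the floor raised to the 75th percentile of each array the DKO-labelled signal lay below it, and Chil3 had a log2 bound of 2.46.

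Lyz2 had 2131 on the TKO-labelled array and 855 on the DKO-labelled array, 2.49-fold higher (log2 ratio 1.32). Lyz1 had 3 probe sets that disagreed. Its brightest had 4147 on the TKO-labelled and 1313 on the DKO-labelled array, 3.16-fold higher (log2 ratio 1.66). Its next had 2421 and 432 in the same order, 5.61-fold higher (log2 ratio 2.49). Both carry the suffix _x_at, which Affymetrix gives to probe sets with probes that can also match other transcripts. The remaining Lyz1 probe set, without that suffix, lay below the floor on both arrays, at 4.56 on the TKO-labelled and 18.1 on the DKO-labelled array. The signals of the lysozyme pair can therefore not be assigned to Lyz1, and with _x_at and _s_at probe sets left out Lyz1 has no ratio. Lyz1 is accordingly an uncertain member of the count of 5.

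Among the surface receptors, Csf1r, the kinase receptor for Csf1 and interleukin 34, was the one past 2-fold. Its brightest probe set had 807 on the TKO-labelled array and 249 on the DKO-labelled array, 3.23-fold higher (log2 ratio 1.69). A probe set of the _s_at type, which can read several transcripts, had 209 and 78.7 in the same order, 2.65-fold higher (log2 ratio 1.41). The remaining one had 183 and 111, 1.66-fold higher (log2 ratio 0.73). All 3 were brighter on the TKO-labelled array, by unequal amounts, and their mean log2 ratio was 1.28. At the 75th-percentile floor the DKO-labelled signal lay below it, and Csf1r had a log2 bound of 0.95, which does not reach the 2-fold rule.

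Fcgr3, a low-affinity receptor for immunoglobulin G, had 291 on the TKO-labelled array and 167 on the DKO-labelled array (1.74-fold, log2 ratio 0.80). Adgre1, the adhesion receptor known as F4/80 and a classical surface marker of mouse macrophages, had 130 and 95.8 in the same order (1.35-fold, log2 ratio 0.44). Both genes were brighter on the TKO-labelled array but under 2-fold, and Adgre1 was close to the floor on both arrays. Cd14, the co-receptor for bacterial lipopolysaccharide on monocytes, had 42.2 on the TKO-labelled and 11.4 on the DKO-labelled array, both below the floor. With the floor lowered to the 25th percentile of each array it became measured on the TKO-labelled array alone, at least 2-fold higher with a log2 bound of 1.07. Itgam, the CD11b integrin chain of monocytes, macrophages and neutrophils, had 5.22 on the TKO-labelled and 11.2 on the DKO-labelled array. It was below the floor on both arrays by its single probe set, also at the 25th percentile, so 2 defining surface markers of monocytes, Cd14 and Itgam, had no measured level on either array.

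The lysosomal members differed from each other. Ctss, the cysteine protease that trims the invariant chain of class II histocompatibility molecules, was the brightest gene of the group on the TKO-labelled array, at 5063 there and 1810 on the DKO-labelled array, 2.80-fold higher (log2 ratio 1.48). Cd68, a glycoprotein of macrophage lysosomes, had 199 on the TKO-labelled and 138 on the DKO-labelled array (1.44-fold, log2 ratio 0.53). The Ctss ratio was thus past 2-fold and that of Cd68, the gene known as the more macrophage-restricted of the pair, was not. Ctss is also a gene of antigen presentation, and Cd74, the invariant chain that it cuts, had 6305 on the TKO-labelled and 1197 on the DKO-labelled array (5.27-fold). Which cells gave the Ctss, Cd68 and Cd74 signals was not tested.

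The wider biology of the lineage is described with 9 lists of genes. They were drawn up with earlier results of these arrays known, so their counts are a description. Of 128 listed genes 118 had a probe set of their own and 86 were measured. Of these, 19 (22.1%) were higher on the TKO-labelled array by 2-fold or more, against 3.58% of all measured genes, and 1 (1.16%) was 2-fold lower, against 0.532%. The median log2 ratio was 0.45, against -0.03 over all measured genes, and 68 of the 86 ratios were positive. The remaining 66 measured genes lay under 2-fold and 32 lay under the floor on each array. The group's own genes are not in these lists.

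Growth factor and receptor genes beside Csf1r were partly higher, with 2 of 5 measured genes past 2-fold on that side and 0 on the other. The shares of all measured genes were 3.58% and 0.532%. Csf1, the ligand of Csf1r, had 219 on the TKO-labelled array against 4.45, under the floor, on the DKO-labelled one, at least 3.19-fold higher. The other 3 Csf1 probe sets had signals under the floor on either array. Csf2rb, the shared chain of the receptors for interleukin 3, interleukin 5 and GM-CSF, had 424 and 142 on the TKO-labelled and DKO-labelled arrays (2.99-fold). Csf2ra, the GM-CSF receptor alpha chain, and Il3ra had log2 ratios of 0.27 and -0.82. Il34, the other ligand of Csf1r, was below the floor on both arrays, at 47.3 on the TKO-labelled and 37.4 on the DKO-labelled array.

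Among myeloid transcription factors 2 of 12 measured genes were higher by 2-fold or more and 0 were lower, against 3.58% and 0.532% of all measured genes. The median log2 ratio of the list was 0.63. Irf5, an interferon regulatory factor of macrophages and B cells, had 352 on the TKO-labelled and 122 on the DKO-labelled array (2.89-fold), though its second probe set was at a log2 ratio of 0.23. Zeb2, a zinc-finger repressor, had 1464 and 611 in the same order (2.40-fold). The brightest of those under 2-fold were Irf8 at a log2 ratio of 0.81 and Maf at 0.41. Spi1, named after its value was seen, had 181 on the TKO-labelled and 96.3 on the DKO-labelled array, a log2 ratio of 0.91, and Cebpa, a factor needed for the granulocyte and monocyte lineage, was below the floor on both.

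Genes of Fc receptors and of lipopolysaccharide sensing had higher members as well. Fcgr2b, the inhibitory Fc receptor that B cells also carry, had 2136 on the TKO-labelled array and 612 on the DKO-labelled array (3.49-fold). Fcer1g, the signalling chain that pairs with Fcgr3, had 986 and 452 (2.18-fold), so the chain was past 2-fold while Fcgr3 itself was not. In that list 2 of 6 measured genes were higher and 0 lower, against 3.58% and 0.532% of all measured genes. Tyrobp (DAP12), another signalling adaptor, and Fcgrt had log2 ratios of 0.94 and 0.17. Of 10 measured genes of lipopolysaccharide and pattern receptors 3 were higher and 0 lower. Ly86, the partner of Cd180 on B cells and macrophages, had 4150 on the TKO-labelled and 1224 on the DKO-labelled array (3.39-fold). Ly96, the partner of Tlr4, had 327 and 123 (2.66-fold), and Clec7a, the beta-glucan receptor Dectin-1, had 286 and 128 (2.24-fold). Myd88 and Tlr2 had log2 ratios of -0.16 and 0.48.

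In the list of macrophage and monocyte surface receptors 10 of 18 genes were below the floor on both arrays, including the scavenger receptors Msr1 and Marco, the sialic acid receptor Siglec1, the complement receptor Vsig4 and the phosphatidylserine receptor Timd4. Others of tissue macrophages were measured on at least 1 array, close to the floor: the mannose receptor Mrc1 and the kinase receptor Mertk on the TKO-labelled array alone (log2 bounds 0.94 and 0.53), the haemoglobin scavenger receptor Cd163 on the DKO-labelled array alone (-0.36), and Axl and Cx3cr1 on both (log2 ratios -0.48 and -0.29). These genes were named after their values were seen. Of the 8 measured in the list, 1 was higher and 0 lower, against 3.58% and 0.532% of all measured genes. The higher one, the monocyte chemokine receptor Ccr2, had 519 on the TKO-labelled and 242 on the DKO-labelled array (2.15-fold). Among its 3 other probe sets, 1 was measured on the TKO-labelled array alone (log2 bound 0.26), 1 on the DKO-labelled array alone (log2 bound -0.18) and 1 on neither. Cd36 and Sirpa had log2 ratios of 0.74 and 0.86. Of 5 measured genes of beta2 integrins and partners 0 passed 2-fold in either direction, with Fermt3 at -0.03 and Itgal at -0.30. In the list of chitinase-like and alternative activation genes, Retnla, which is known with Chil3 as a marker of alternative activation, had 150 on the TKO-labelled and 59.5, below the floor, on the DKO-labelled array, at least 2.18-fold higher. It was the 1 of 3 measured genes to pass, 0 were lower, Chit1 had a log2 bound of -0.87 and Arg1 one of 0.38, and Chil1 and Chia1 lay under the floor on each array.

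Of the other lysosomal genes, 3 of 20 measured ones (15%) were higher by 2-fold or more, against 3.58% of all measured genes, and 0 were lower, around a median log2 ratio of 0.18. The 3 were the protease genes Ctsh (2339 on the TKO-labelled and 477 on the DKO-labelled array, 4.90-fold) and Lgmn (406 and 127, 3.20-fold), and Mpeg1, the pore-forming perforin-2 of phagocytes (988 and 388, 2.55-fold). The brightest of the other genes, Laptm5 and Npc2, had log2 ratios of 0.85 and 0.03. In the list of complement, oxidase and other effectors 5 of 17 measured genes were higher and 1 was lower, against 3.58% and 0.532% of all measured genes. Cybb, the catalytic chain of the phagocyte oxidase that B cells express too, had 1033 on the TKO-labelled and 185 on the DKO-labelled array (5.58-fold). Wfdc17, a secreted protease inhibitor-like protein, had 295 and 84.0 (3.51-fold), and the galectin Lgals3 had 961 and 348 (2.76-fold). Cfp, the complement factor properdin, was the lower one, with 122 on the TKO-labelled and 397 on the DKO-labelled array (log2 ratio -1.71). Its second probe set had 55.1, below the floor, on the TKO-labelled and 125 on the DKO-labelled array. The log2 bound of that probe set was -0.80, which does not reach 2-fold. Cybb and Cfp lie on the X chromosome. Cyba, the partner chain of Cybb, and Ifi30 had log2 ratios of 0.33 and 0.69. The C1q chains, subunits of the first complement component made by tissue macrophages and named after their values were seen, stood at log2 ratios of 0.93 (C1qa), 0.61 (C1qb) and 0.67 (C1qc), brighter on the TKO-labelled array but under 2-fold.

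**Figure D3:**
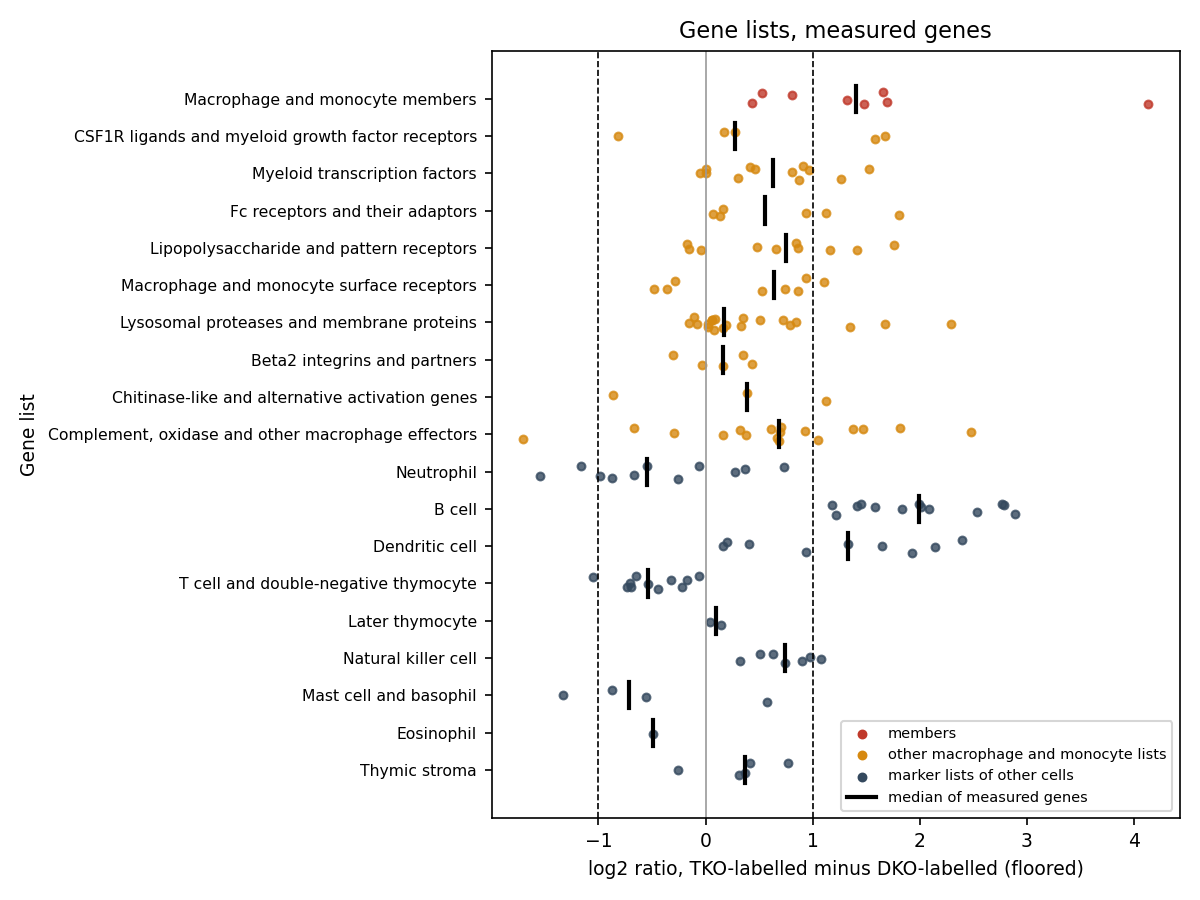
Log2 ratios, TKO-labelled minus DKO-labelled, of each measured gene in the group, in 9 other lists of macrophage and monocyte biology and in marker lists of other cells. Points are genes, black bars are list medians and dashed lines mark 2-fold. The medians of the group (1.40), the B cell list (1.99) and the dendritic cell list (1.33) lie right of the 2-fold line. Those of the mast cell and basophil (-0.72), neutrophil (-0.55), T cell (-0.53) and eosinophil (-0.49, 1 measured gene) lists lie left of 0. Erythroid markers are not drawn, since none was measured.

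B cell and dendritic cell marker lists were higher on the TKO-labelled array in their medians, as the macrophage and monocyte genes were, and their part in these differences was not tested. All 13 measured B cell markers were past 2-fold and higher on the TKO-labelled array, against 3.58% of all measured genes. These markers had a summed signal of 43875 there and 12201 on the DKO-labelled array. Bank1, Fcrla and Ms4a1 led them at 7.39-fold, 6.92-fold and 6.80-fold. Of 9 measured dendritic cell markers 5 were higher and 0 lower, with summed signals of 27909 and 7362 over the list. The higher ones included the class II genes Cd74, H2-Eb1 (4.41-fold) and H2-Aa (3.80-fold), which B cells also express. Ccr7 was higher as well, at 265 on the TKO-labelled and 105 on the DKO-labelled array (2.52-fold). Under 2-fold were Itgax (log2 ratio 0.16) and, measured on the TKO-labelled array alone, Zbtb46, Cd209a and Batf3 (log2 bounds 0.94, 0.40 and 0.20). Ccr7, Itgax, Zbtb46, Cd209a and Batf3 were named after their values were seen. All 9 measured ratios were positive, while the dendritic cell genes Xcr1, Siglech and Flt3 lay under the floor on each array. For comparison, the summed signal over the brightest probe sets of the 10 macrophage and monocyte genes was 15114 on the TKO-labelled and 4781 on the DKO-labelled array.

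Of 11 measured neutrophil markers 0 were 2-fold higher and 2 were at least 2-fold lower on the TKO-labelled array. The shares of all measured genes were 3.58% and 0.532%. Of the 11, 3 had positive ratios (Ltf 0.74, Mmp9 at a bound of 0.37 and Prtn3 0.27, on the log2 scale). The neutrophil median log2 ratio was -0.55, with summed signals of 2204 on the TKO-labelled and 3626 on the DKO-labelled array. Ngp had 140 on the TKO-labelled and 408 on the DKO-labelled array, and S100a9 had 384 and 860. Mmp8, Fcnb, Chil1 and Csf3r were below the floor on both. The part of neutrophils in the members' signals was not tested. Of 7 measured natural killer markers 1, Klrd1, was higher (2.12-fold) and 0 were lower. All 7 ratios were positive, with a median log2 ratio of 0.75 and summed signals of 4590 on the TKO-labelled and 2572 on the DKO-labelled array. The part of natural killer cells was not tested either. Mast cell and basophil markers had 0 higher and 1 lower of 4 measured genes (Cma1, at least 2.52-fold lower), with Mcpt8, Tpsb2, Ms4a2 and Fcer1a below the floor on both arrays. Their summed signals were 1154 on the TKO-labelled and 2129 on the DKO-labelled array.

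The other marker lists gave few measured genes past 2-fold. Over all measured genes 3.58% were at least 2-fold higher and 0.532% at least 2-fold lower. Of 11 measured T cell and double-negative thymocyte markers 0 were higher and 1 was lower, Il2ra, at 3162 on the TKO-labelled and 6536 on the DKO-labelled array. Of the 11 ratios 0 were positive, with a median log2 ratio of -0.53. The summed signals of the list were 86139 on the TKO-labelled and 125154 on the DKO-labelled array. Cd4 was below the floor on both arrays, and Cd8a and Cd8b1 had log2 ratios of 0.04 and 0.15. In the eosinophil list 1 of 5 genes was measured and it lay under 2-fold, and Epx, Siglecf, Ccr3 and Il5ra lay under the floor on each array. The 3 erythroid markers with a probe set, Hba-a1, Klf1 and Alas2, were below the floor on both. Of 5 measured thymic stroma markers 0 passed 2-fold in either direction, and Foxn1, Psmb11, Col1a1, Pdgfra and Cdh5 were below the floor on both arrays.

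**Figure D4:**
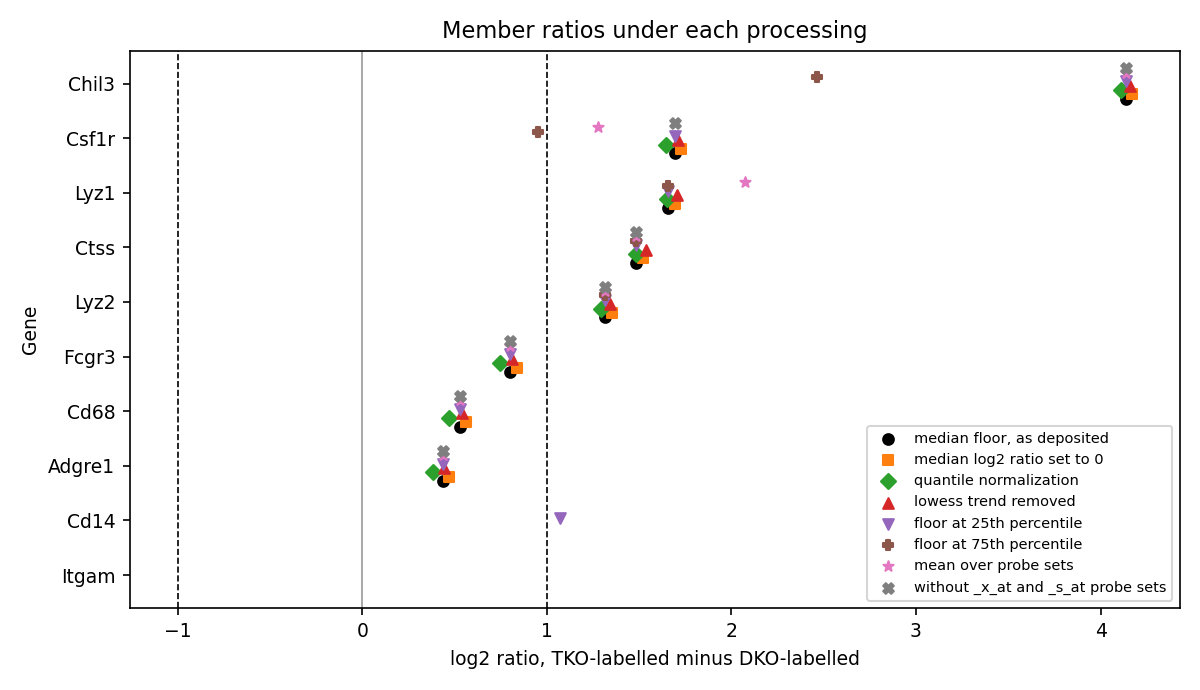
Log2 ratio, TKO-labelled minus DKO-labelled, of each macrophage and monocyte gene under the reported processing (black circles) and 7 alternatives. Dashed lines mark 2-fold. Chil3, Ctss and Lyz2 lie right of the 2-fold line under all 8, Csf1r has a bound of 0.95 when the floor is the 75th percentile, Cd14 has a value with the floor at the 25th percentile alone, and Itgam has none.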

How the data were processed

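RNA of 2 thymocyte samples, 1 per label, was hybridised to 1 array each. The deposited values are probe set intensity values on a linear scale, with MAS5 named in the submitters' processing notes without version or settings. Trimmed means (2% from each end) were 497 on both arrays. Scanner files, scan dates and detection calls were not used here. Batch and label cannot be told apart with 1 array each, and the number of arrays limits the precision.

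The platform annotation gave 1 gene for 34945 of 45037 probe sets, several for 932 and none for 9160. Current symbols came from a RefSeq table of GRCm38.p6 by Entrez ID (99.4% matched). The brightest probe set by mean log2 signal stood for each gene. Signals below each array's median were raised to it, and log2 ratios were taken as TKO-labelled over DKO-labelled. Genes measured on 1 array alone have a bound, written as at least. No test was possible, so a size rule of 2-fold was used.

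The members, lists, floor and size rule were chosen with earlier results of these arrays known. Named are all members, up to 4 genes past 2-fold and the 2 brightest others of each pathway list, and up to 3 genes past 2-fold of each marker list with markers below the floor. Listed genes without a probe set of their own were not analysed here. The ratio procedure was run on simulated data in which the changed genes were all far above the floor and shifted past 2-fold. That run does not cover genes near the floor. Alternatives were quantile normalization, centring of the median log2 ratio on 0, subtraction of a lowess trend (span 0.3), floors at the 25th and 75th percentiles, means over probe sets, and leaving out _x_at and _s_at probe sets or X and Y genes. Python 3.11.15, numpy 2.4.6, pandas 2.3.3, scipy 1.17.1, statsmodels 0.14.6, Biopython 1.88 and matplotlib 3.10.9 were used.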

Additional observations from a re-analysis of the deposited data

How the results depend on the processing

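Over 8 alternative settings, between 4 and 6 of the 10 genes were higher by 2-fold or more on the TKO-labelled array, and 0 were lower in each. The median log2 ratio of the measured ones lay between 1.30 and 1.48. How many were measured changed as well, with 4 of 5 higher at the 75th-percentile floor and 6 of 9 at the 25th. The counts over all measured genes at these floors, which changed too, are given below. Without _x_at and _s_at probe sets, 4 of 8 measured member probe sets were at least 2-fold higher in place of 7 of 11, since the removed types hold the others. In that setting 385 of 10956 measured genes were higher and 52 lower. The floor mattered most, because it sets which genes have a ratio. At the 25th percentile 962 of 15873 measured genes were higher and 434 lower, and of 114 measured pathway genes 24 were higher and 4 lower. At the 75th percentile 147 of 7191 measured genes were higher and 14 lower, and of 42 measured pathway genes 9 were higher and 0 lower. Without X and Y genes, 18 of 83 measured pathway genes were higher and 0 lower, beside 388 higher and 55 lower of 10925 measured genes. No paired analysis was possible because each label has 1 array. Adgre1 and Cd68 lay near the floor and Cd14 and Itgam below it, which limits what their signals show.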

Other observations

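Among the measured protein-coding genes next to a member on the chromosome, Lyz1 and Lyz2, which flank each other, were the ones higher on the TKO-labelled array by 2-fold or more. The Lyz1 ratio came from an _x_at probe set and cannot be assigned to Lyz1, so the pair may not be 2 separate readings. The clearest contrast was at Csf1r, whose immediate protein-coding neighbour Pdgfrb, a platelet-derived growth factor receptor of mesenchymal cells, had 1423 on the TKO-labelled and 3605 on the DKO-labelled array, a log2 ratio of -1.34, while Csf1r stood at 1.69. Hmgxb3, on the other side of Csf1r, was at -0.17. Cpsf6, beside Lyz1, was at -0.10, and Mpdu1 and Eif4a1, on both sides of Cd68, were at 0.20 and -0.23. Ctsk and Hormad1, on both sides of Ctss, and Chia1 and Chil4, on both sides of Chil3, were below the floor on both arrays. Itgax, beside Itgam, had 230 on the TKO-labelled and 205 on the DKO-labelled array (log2 ratio 0.16), so this CD11c integrin chain was measured where the CD11b chain was not. Fcgr4, beside Fcgr3, was measured on the TKO-labelled array alone, with a log2 bound of 0.07. Cfap126, on the other side of Fcgr3, and Vav1, beside Adgre1, were at 0.40 and 0.53. Of the neighbours not measured, 9530003J23Rik (beside Lyz2), Trim72 (beside Itgam) and E230025N22Rik (beside Cd14) were under the floor on each array, and Vmn2r120 (beside Adgre1) was not analysed here. Tmco6, on the other side of Cd14, was at -0.17. These neighbours were looked up after the members' values had been seen, and gene order is that of GRCm38.p6.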
